A study of Homo sapiens with 8 samples.

Results

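The genes described here make cholesterol and fatty acids, sense cellular sterol and move sterol out of the cell, and they were measured in 2 human neuroblastoma cell lines with and without an shRNA against TRPM7, a cation channel fused to a protein kinase. They were 30 listed genes, chosen by symbol out of the 31426 gene symbols on the array, and 48 of the 47322 probes carried such a symbol. For each gene the values shown are those of its brightest probe on average over all arrays. SH-SY5Y cells are neuroblastic and SH-EP2 cells are epithelial-like, and both lines derive from the same neuroblastoma line, SK-N-SH. Cells of each line were stably transduced by lentivirus with either a scrambled shRNA (control) or TRPM7 shRNA, and total RNA was hybridized to Illumina HumanHT-12 v4 bead arrays, with 2 arrays in each of the 4 groups and 8 arrays in all. A single TRPM7 shRNA sequence was used on the arrays, and the control cells of both lines carried a lentiviral vector and had been through the same drug selection. The culture medium of the lines is given differently by the labels and by the methods of the study, so that the line and its medium cannot be told apart. The samples were prepared in duplicate and nothing says that the duplicates were separate cultures, so that p-values measure the spread between these arrays, which may be technical.

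Cells build cholesterol from acetyl-CoA, first through the mevalonate steps to farnesyl diphosphate and then through squalene and lanosterol to cholesterol. The transcription factors SREBP1 and SREBP2, encoded by SREBF1 and SREBF2, are held in the endoplasmic reticulum by SCAP and the INSIG proteins while sterol is plentiful, and are cleaved and reach the nucleus when it is scarce, where they bind sterol regulatory elements together with NF-Y, which binds the CCAAT box. Fatty acid synthesis draws on the same cytosolic acetyl-CoA, and the exporters ABCA1 and ABCG1 are induced through the liver X receptors when oxidised sterols accumulate.

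Values are log2 normalized signals (background corrected, quantile normalized), and a probe was detected when its detection p was under 0.05. Between 40.8% and 44.2% of all probes were detected per array, and with 2 arrays per group every value has limited precision. Most of the markers followed the labelled lines. Of 12 noradrenergic markers, 11 were detected on every SH-SY5Y array, and their summed linear signal was 27732 to 38825 there and 254 to 301 in SH-EP2 cells, in which markers not detected on any array included PHOX2A, DBH, TH, STMN2, CHGA and DDC. TH was not detected in SH-SY5Y cells either. Each SH-EP2 array detected 4 or 5 of the 12 noradrenergic markers. Of 12 mesenchymal markers, 12 were detected on every SH-EP2 array and 10 on every SH-SY5Y array, where FN1 and PRRX1 were not detected. In the limma test used below, 9 of these 12 passed as higher and 3 as lower in SH-EP2 than in SH-SY5Y control cells. Of the noradrenergic markers 11 passed as lower and 0 as higher. Over all probes 12.2% passed as higher and 14% as lower. No array detected the TRPM7 probe, which leaves the knockdown unchecked here, and fewer cells of a type and less RNA per cell cannot be told apart in bulk RNA.

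Promoter windows, from 250 bases before to 50 bases after an annotated start, came from RefSeq (GRCh38.p14), and 25 of the 30 genes had an entry, with 34 windows in all. No window was matched for ACAT2, FDFT1, SQLE, ABCG1 and FASN. Both strands were searched for a sterol regulatory element, TCACNCCAC, and for a CCAAT box, CCAAT, which reads ATTGG on the other strand. A CCAAT box lay in 22 of the 34 windows (64.7%), against 34.6% of all 35116 windows, and in at least 1 window of 18 of the 25 genes (72.0%), against 39.7% of 27305 genes. The sterol regulatory element as searched lay in 1 window (2.94%), against 1.13% of all windows, and that window belonged to SREBF2. By role, a CCAAT box was found for 7 of 8 genes of the sterol steps, 5 of 6 of the mevalonate steps, 3 of 4 of fatty acid synthesis, 2 of 5 of the sterol sensors and 1 of 2 of transport. These matches are a description of the letters and not of binding.

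The windows printed are those of SREBF2, which holds the element and a CCAAT box, of TM7SF2 and ACLY, which passed the test in both lines, of INSIG1 and DHCR7, which fell in SH-EP2 cells, and of ABCA1, which rose there. Each reads along its gene's strand, with the matches in capitals. The windows lie at chr22:41832855-41833154 (plus strand) for SREBF2, chr7:155297628-155297927 (plus) for INSIG1, chr11:71448344-71448643 (minus) for DHCR7, chr11:65111622-65111921 (plus) for TM7SF2, chr17:41918973-41919272 (minus) for ACLY and chr9:104928106-104928405 (minus) for ABCA1. DHCR7 and ACLY have 2 windows each, and the window listed ahead of the other is printed.
SREBF2: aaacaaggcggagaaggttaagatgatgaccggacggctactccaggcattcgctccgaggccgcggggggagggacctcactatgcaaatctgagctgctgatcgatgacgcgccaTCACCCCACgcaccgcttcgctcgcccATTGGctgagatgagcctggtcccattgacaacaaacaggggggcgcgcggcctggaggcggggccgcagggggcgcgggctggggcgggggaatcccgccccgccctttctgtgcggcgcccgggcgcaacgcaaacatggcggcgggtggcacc
INSIG1: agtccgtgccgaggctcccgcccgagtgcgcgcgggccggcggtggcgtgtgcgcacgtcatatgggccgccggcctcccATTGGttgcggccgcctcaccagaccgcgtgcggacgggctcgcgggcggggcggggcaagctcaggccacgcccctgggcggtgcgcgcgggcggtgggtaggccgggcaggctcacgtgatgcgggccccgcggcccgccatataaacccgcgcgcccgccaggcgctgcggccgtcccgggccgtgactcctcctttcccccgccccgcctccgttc
DHCR7: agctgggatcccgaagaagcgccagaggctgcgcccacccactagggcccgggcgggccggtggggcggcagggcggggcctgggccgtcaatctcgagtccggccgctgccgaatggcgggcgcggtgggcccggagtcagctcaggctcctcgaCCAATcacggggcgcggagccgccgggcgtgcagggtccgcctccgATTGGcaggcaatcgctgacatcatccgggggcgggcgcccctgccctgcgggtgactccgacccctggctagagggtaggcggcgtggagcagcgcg
TM7SF2: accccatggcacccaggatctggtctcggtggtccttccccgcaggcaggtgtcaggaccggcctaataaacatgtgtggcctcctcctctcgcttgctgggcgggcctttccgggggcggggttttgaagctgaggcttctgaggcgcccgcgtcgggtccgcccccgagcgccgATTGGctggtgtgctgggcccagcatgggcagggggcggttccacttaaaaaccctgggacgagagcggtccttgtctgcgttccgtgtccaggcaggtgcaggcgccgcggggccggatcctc
ACLY: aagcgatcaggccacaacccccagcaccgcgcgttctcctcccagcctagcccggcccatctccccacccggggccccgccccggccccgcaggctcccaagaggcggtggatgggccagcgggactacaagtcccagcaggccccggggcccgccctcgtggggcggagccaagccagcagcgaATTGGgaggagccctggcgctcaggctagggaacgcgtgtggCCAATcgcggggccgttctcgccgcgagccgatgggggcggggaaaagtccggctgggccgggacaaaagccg
ABCA1: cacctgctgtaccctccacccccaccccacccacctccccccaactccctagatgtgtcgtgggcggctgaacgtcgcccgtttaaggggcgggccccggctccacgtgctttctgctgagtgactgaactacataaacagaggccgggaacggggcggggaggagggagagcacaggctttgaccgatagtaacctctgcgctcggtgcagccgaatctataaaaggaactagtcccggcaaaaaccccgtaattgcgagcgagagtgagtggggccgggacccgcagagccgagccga
In SREBF2 the element began 133 bases upstream of the start and the CCAAT box, on the other strand, 106 bases upstream. INSIG1 held a CCAAT box 170 bases upstream and TM7SF2 held its box 74 bases upstream, both on the other strand. In the printed DHCR7 window the boxes began 94 and 48 bases upstream, and in that of ACLY 65 and 23 bases upstream. In the ABCA1 window neither motif was found.

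**Figure D1:**
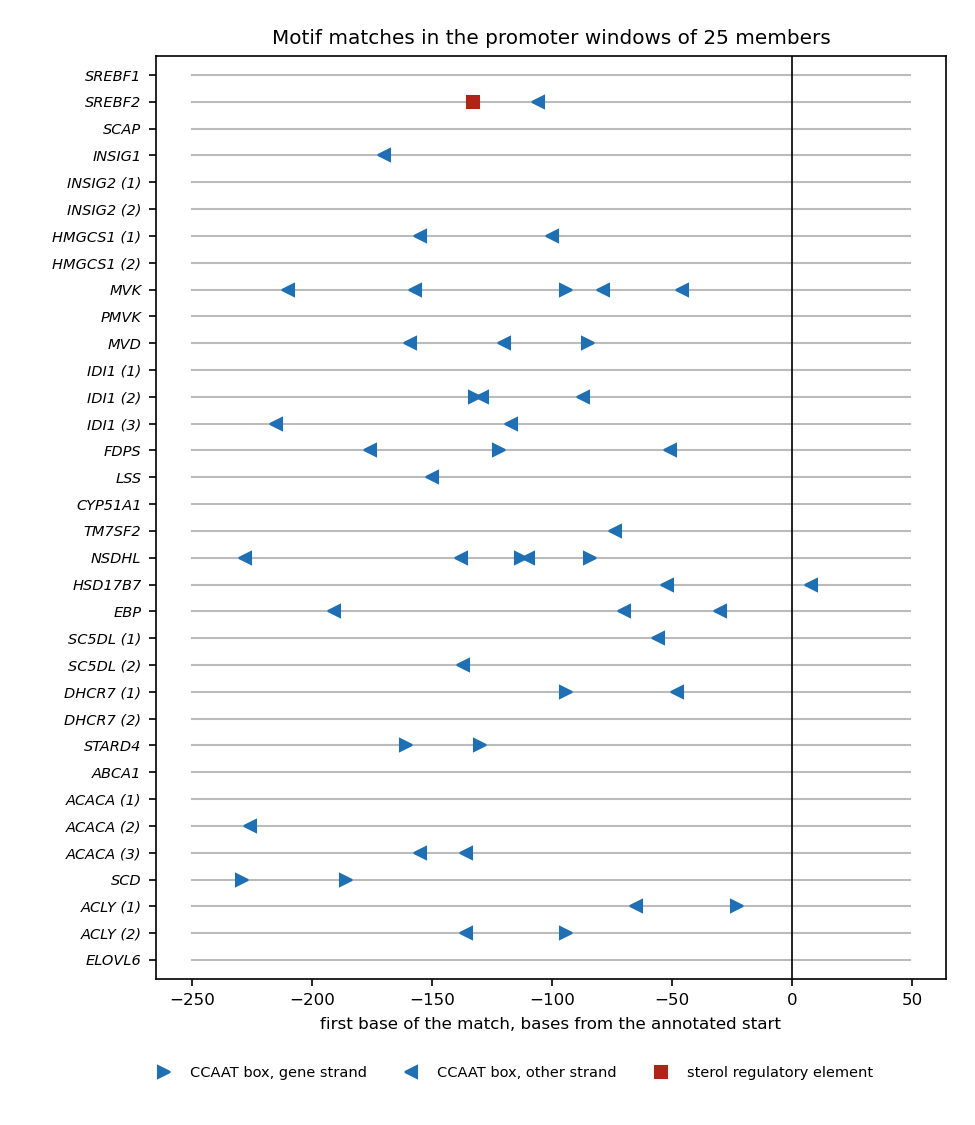
Motif matches in the 34 promoter windows of 25 genes. The horizontal axis gives the first base of each match in bases from the annotated start (0), grey lines are the windows, triangles are CCAAT boxes pointing right on the gene strand and left on the other strand, and the square is the sterol regulatory element, found in the SREBF2 window.

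To address whether TRPM7 shRNA changed these genes, its arrays were set against those of control cells within each line. In SH-SY5Y cells 2 of the 30 genes passed an adjusted p of 0.05 (limma, Benjamini-Hochberg over all probes), where 2.11% of all probes passed and 4.73% of those detected on at least 2 of the 4 arrays. TM7SF2, a sterol reductase of the late cholesterol pathway, rose 1.63-fold, and ACLY, which makes cytosolic acetyl-CoA from citrate, fell to a level 2.34-fold lower, where 0.807% of all probes rose and 1.3% fell. In SH-EP2 cells 9 genes passed, 5 higher and 4 lower, where 3.02% of all probes passed and 7.08% of detected probes. These were the same TM7SF2 and ACLY, in the same directions, and in addition ACAT2, FASN, ELOVL6 and ABCA1, which rose, and INSIG1, SQLE and DHCR7, which fell, where 1.48% of all probes rose and 1.54% fell. The 2 comparisons share no arrays.

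The median log2 fold change of the 30 genes was 0.014 in SH-SY5Y cells, with 18 genes above 0, and -0.16 in SH-EP2 cells, with 12 genes above 0, while over all probes it was 0.0048 and 0.0061. The number above 0 in SH-SY5Y cells moved with the scaling method, and after median scaling 25 genes were above 0 with a median of 0.15, against 0.092 over all probes. In that setting 553 probes rose and 284 fell in SH-SY5Y cells, against 382 and 617 with quantile normalization. The arrays of control and TRPM7 shRNA cells did not overlap for 10 genes in SH-SY5Y cells, where 39.1% of all probes did not overlap, and for 26 genes in SH-EP2 cells, where 42.9% of all probes did not. At an unadjusted p under 0.05 there were 7 genes in SH-SY5Y cells and 20 in SH-EP2 cells, against 11.4% and 12.6% of all probes.

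**Figure D2:**
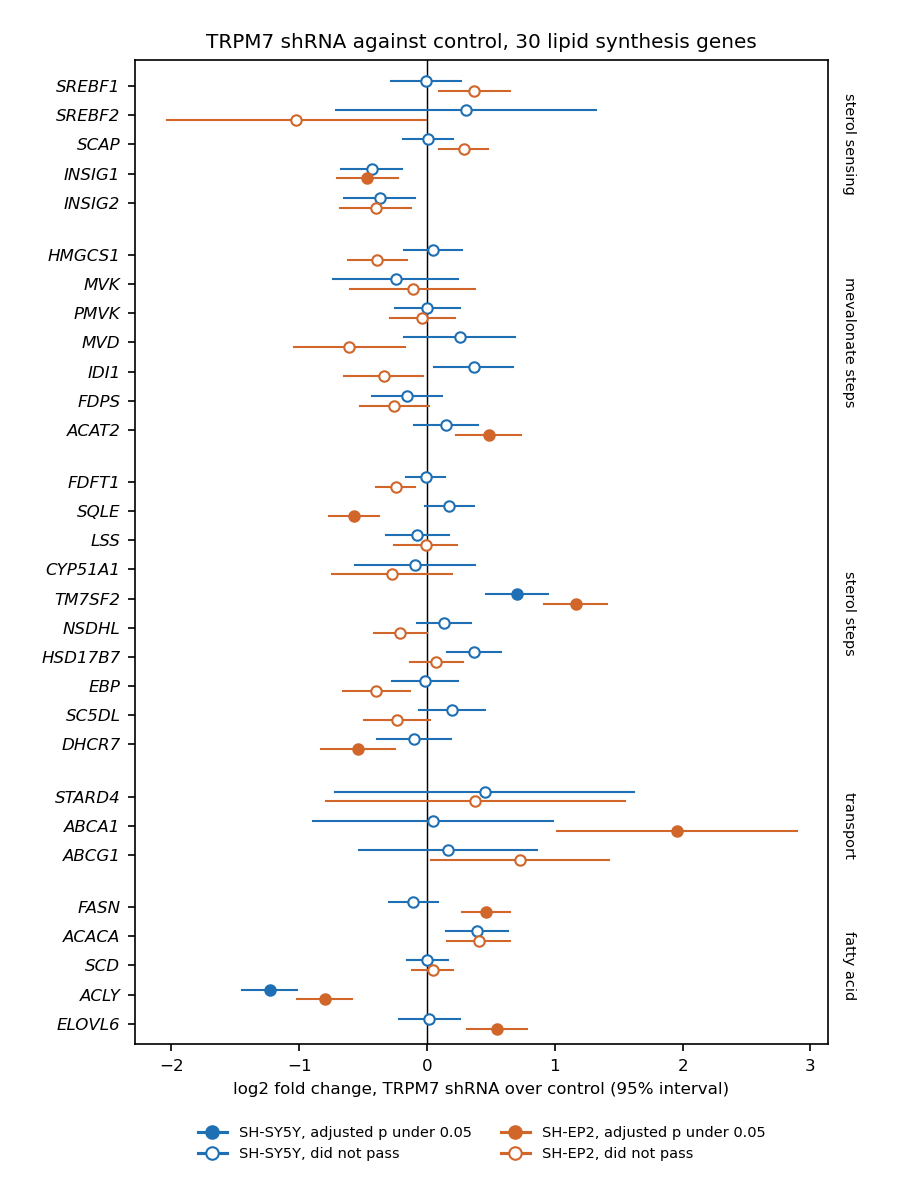
Log2 fold change of each of the 30 genes, TRPM7 shRNA over control, with its 95% interval, in SH-SY5Y (blue) and SH-EP2 cells (orange). Filled points passed an adjusted p of 0.05, 2 in SH-SY5Y and 9 in SH-EP2 cells, and genes are grouped by role.

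ACLY had the largest decrease among the genes that passed in either line. In SH-SY5Y cells its signals were 11.25 and 11.18 on the control arrays and 10.17 and 9.79 on the TRPM7 shRNA arrays. In SH-EP2 cells they were 11.05 and 11.19 on the control arrays and 10.29 and 10.35 with TRPM7 shRNA. All 4 TRPM7 shRNA arrays were thus below all 4 control arrays. The log2 fold change was -1.23 (SE 0.10, adjusted p = 3.84e-07) in SH-SY5Y cells and -0.80 (SE 0.10, adjusted p = 7.63e-05) in SH-EP2 cells. A second ACLY probe also passed in both lines, with -0.82 (adjusted p = 0.000246) and -0.73 (adjusted p = 0.000715). The difference between the lines was -0.43 for the brighter probe (95% interval -0.73 to -0.13) and did not pass after adjustment (adjusted p = 0.22).

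TM7SF2 rose in both lines. Its signals were 8.998 and 9.003 on the SH-SY5Y control arrays and 9.79 and 9.62 on the TRPM7 shRNA arrays, a log2 fold change of 0.70 (SE 0.12, adjusted p = 0.00139). In SH-EP2 cells the signal went from 7.32 and 7.14 to 8.43 and 8.36, a log2 fold change of 1.16 (SE 0.12, adjusted p = 4.03e-06). In neither line did the groups overlap, and even the higher SH-EP2 signals with TRPM7 shRNA stayed under those of SH-SY5Y control cells. The increase in SH-EP2 cells exceeded that in SH-SY5Y cells by 0.46, with a 95% interval of the difference (SH-SY5Y minus SH-EP2) from -0.81 to -0.11, and this difference did not pass after adjustment (adjusted p = 0.274). TM7SF2 and ACLY passed in each line with any of the 8 arrays left out, and did not pass without the intensity trend in the variance model, a limma setting in which none (0) of the 30 genes passed in either line and 2 in SH-SY5Y and 12 in SH-EP2 cells had an unadjusted p under 0.05.

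**Figure D3:**
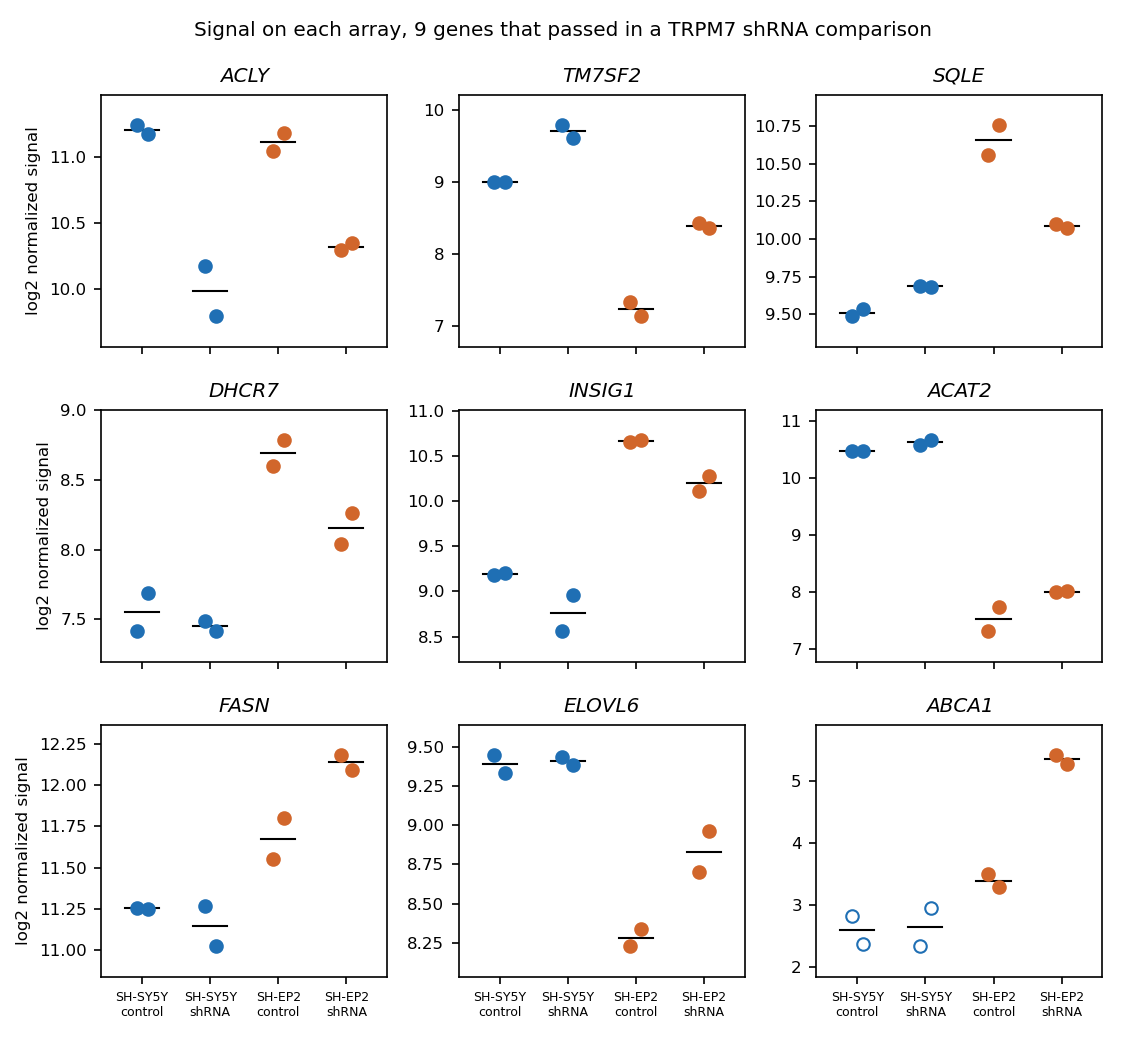
Log2 normalized signal on each of the 8 arrays for the 9 genes that passed in a TRPM7 shRNA comparison, with blue points for SH-SY5Y and orange for SH-EP2 cells, bars at the mean of 2 arrays and open points where the probe was not detected. Each panel has its own vertical scale, which does not start at 0. ACLY was lower and TM7SF2 higher with TRPM7 shRNA in both lines.

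Among the genes of sterol sensing, INSIG1 fell in SH-EP2 cells. INSIG1 retains SCAP in the endoplasmic reticulum and is itself a target of the SREBP factors. Its signals in SH-EP2 cells were 10.66 and 10.68 in control and 10.12 and 10.28 with TRPM7 shRNA, a log2 fold change of -0.47 (SE 0.11, adjusted p = 0.0264). In SH-SY5Y cells they were 9.18 and 9.20 in control and 8.56 and 8.96 with TRPM7 shRNA, a log2 fold change of -0.43 (SE 0.11) that did not pass (adjusted p = 0.0552). The groups did not overlap in either line, and the effects differed by 0.036 on the log2 scale, with a 95% interval from -0.30 to 0.37. The SH-EP2 call was lost when any of the 4 SH-EP2 arrays was left out, with log2 fold changes from -0.55 to -0.39, and a dimmer second INSIG1 probe gave -0.037 there (adjusted p = 0.985).

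INSIG2, its relative, gave log2 fold changes of -0.37 in SH-SY5Y cells and -0.40 in SH-EP2 cells, and neither passed (adjusted p = 0.226 and 0.14). Signals of INSIG2 were 8.04 and 8.16 in SH-SY5Y control cells and 7.69 and 7.77 with TRPM7 shRNA, and 8.003 and 8.005 on the SH-EP2 control arrays against 7.72 and 7.48. Without overlap in either line, these groups differed by less than the adjusted test required. SREBF1, which drives mainly fatty acid genes, had signals of 7.90 and 7.89 in SH-EP2 control cells and 8.26 and 8.27 with TRPM7 shRNA (adjusted p = 0.175), and a log2 fold change of -0.0074 in SH-SY5Y cells. SCAP, the escort of the SREBP factors, gave 0.29 in SH-EP2 cells (adjusted p = 0.125) and 0.0088 in SH-SY5Y cells. SREBF2, which drives mainly cholesterol genes, was dim, with signals from 2.45 to 3.85 over the 8 arrays, and it was not detected on either SH-EP2 TRPM7 shRNA array, where only a bound of at least 1.24-fold lower than control holds (adjusted p = 0.395).

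The mevalonate steps lead from acetyl-CoA to farnesyl diphosphate. In SH-EP2 cells 6 of the 7 genes had log2 fold changes below 0, with a median of -0.26, and none of these 6 passed the limma test. In SH-SY5Y cells 2 of the 7 were below 0, with a median of 0.050, and none (0) passed. An unadjusted p under 0.05 was found for 4 of the 7 in SH-EP2 cells, and for 12.6% of all probes. In SH-SY5Y cells it was found for 1 of the 7, and for 11.4% of all probes. ACAT2, the cytosolic thiolase that condenses acetyl-CoA at the entry of the pathway, was the exception in SH-EP2 cells, with signals of 7.31 and 7.73 in control and of 8.001 and 8.005 with TRPM7 shRNA. Its log2 fold change there was 0.48 (SE 0.12, adjusted p = 0.0317), and the call was lost without SH-EP2 control replicate 1, where it was 0.27, and without either SH-EP2 TRPM7 shRNA array. In SH-SY5Y cells ACAT2 was at 10.48 on both control arrays and at 10.59 and 10.67 with TRPM7 shRNA (log2 fold change 0.15, adjusted p = 0.73).

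HMGCS1, which makes HMG-CoA, had signals of 10.76 and 10.68 in SH-EP2 control cells and 10.20 and 10.47 with TRPM7 shRNA, a log2 fold change of -0.39 (SE 0.11, adjusted p = 0.0643). In SH-SY5Y cells its groups overlapped, with 9.25 and 9.41 in control and 9.26 and 9.50 with TRPM7 shRNA. MVD, the decarboxylase, was at 7.51 and 7.55 in SH-EP2 control cells and at 6.87 and 6.98 with TRPM7 shRNA, a log2 fold change of -0.61 with a larger error (SE 0.21, adjusted p = 0.156). These 2 genes were lower without overlap in SH-EP2 cells and did not pass. IDI1, the isomerase, gave -0.34 in SH-EP2 cells and 0.36 in SH-SY5Y cells (adjusted p = 0.331 and 0.323), and the difference of 0.70 between the lines did not pass either (adjusted p = 0.136). FDPS, which makes farnesyl diphosphate, gave -0.26 in SH-EP2 cells and -0.16 in SH-SY5Y cells. The kinases MVK and PMVK gave log2 fold changes between -0.24 and 0.0039 over both lines, with adjusted p-values of at least 0.794.

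The sterol steps lead from squalene to cholesterol. In SH-EP2 cells 8 of the 10 genes were below 0 with a median log2 fold change of -0.24. Of these 10 genes 3 passed, TM7SF2 higher and SQLE and DHCR7 lower, where 3.02% of all probes and 7.08% of detected probes passed. In SH-SY5Y cells 5 of the 10 were below 0 with a median of 0.061, and TM7SF2 alone passed. With median scaling 10 of the 10 were above 0 in SH-SY5Y cells, with a median of 0.19. SQLE, the squalene epoxidase and a rate-limiting enzyme of the pathway, had signals of 10.56 and 10.76 in SH-EP2 control cells and 10.10 and 10.07 with TRPM7 shRNA. In SH-SY5Y cells it had 9.49 and 9.53 in control and 9.69 and 9.68 with TRPM7 shRNA, so that the groups did not overlap in either line and lay in opposite order. The log2 fold change was -0.57 (SE 0.092, adjusted p = 0.000847) in SH-EP2 cells and 0.17 (SE 0.092, adjusted p = 0.511) in SH-SY5Y cells. The second SQLE probe gave -0.36 in SH-EP2 cells and 0.25 in SH-SY5Y cells, and neither passed (adjusted p = 0.328 and 0.618).

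DHCR7, the reductase of the final step, fell in SH-EP2 cells from 8.60 and 8.79 to 8.04 and 8.26, a log2 fold change of -0.54 (SE 0.14, adjusted p = 0.0371). In SH-SY5Y cells the groups overlapped, with 7.42 and 7.69 in control and 7.48 and 7.42 with TRPM7 shRNA. The DHCR7 call in SH-EP2 cells was lost when any of the 4 SH-EP2 arrays was left out (log2 fold changes from -0.65 to -0.43), and the second DHCR7 probe gave -0.45 (adjusted p = 0.252). FDFT1, the squalene synthase, had 11.85 and 11.92 in SH-EP2 control cells and 11.64 on both TRPM7 shRNA arrays, a log2 fold change of -0.24 (SE 0.072, adjusted p = 0.0863). EBP, a sterol isomerase, had 9.04 and 9.18 in SH-EP2 control cells and 8.75 and 8.67 with TRPM7 shRNA (adjusted p = 0.112). Lower signals without overlap therefore also held for these genes, which did not pass.

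LSS, the lanosterol synthase, stayed at 9.02 to 9.09 on all 4 SH-EP2 arrays, a log2 fold change of -0.0090 with a 95% interval from -0.25 to 0.24. NSDHL and SC5DL (now SC5D), which act on the sterol nucleus, gave -0.21 and -0.23 in SH-EP2 cells and 0.13 and 0.20 in SH-SY5Y cells, and none of these values passed. CYP51A1, the lanosterol demethylase, gave -0.27 and -0.093, with an SE of 0.22. HSD17B7, a ketosteroid reductase with a near-identical pseudogene whose RNA the probe may also bind, had 10.34 and 10.14 in SH-SY5Y control cells and 10.63 and 10.59 with TRPM7 shRNA, a log2 fold change of 0.37 that did not pass (SE 0.10, adjusted p = 0.0645).

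Of the transport genes, ABCA1 passed in SH-EP2 cells. ABCA1 moves cholesterol and phospholipid to apolipoproteins outside the cell. Its signals were 3.49 and 3.29 in SH-EP2 control cells and 5.42 and 5.28 with TRPM7 shRNA, and all 4 arrays detected it, with the control signals just above the lowest detected signals of those arrays (3.24 and 3.22). The log2 fold change was 1.95 (SE 0.45, adjusted p = 0.0174), and with other background corrections it ranged down to 0.33, so that its size is not fixed by these data. The ABCA1 call was lost when any of the 4 SH-EP2 arrays was left out, with log2 fold changes from 1.87 to 2.07. No SH-SY5Y array detected ABCA1. ABCG1, which exports cholesterol to high-density lipoprotein, had 3.55 and 4.41 in SH-EP2 control cells and 4.86 and 4.55 with TRPM7 shRNA, a log2 fold change of 0.73 with an SE of 0.33 (adjusted p = 0.361). STARD4, a carrier of cholesterol between membranes, was not detected on any SH-EP2 array, was detected on 1 control and 2 TRPM7 shRNA arrays of SH-SY5Y cells, and did not pass (adjusted p = 0.852).

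In fatty acid synthesis, 4 of the 5 genes had log2 fold changes above 0 in SH-EP2 cells, with ACLY as the exception, and 3 of the 5 in SH-SY5Y cells, with medians of 0.40 and 0.0031. FASN, the synthase of palmitate, rose in SH-EP2 cells from 11.55 and 11.80 to 12.18 and 12.09, a log2 fold change of 0.46 (SE 0.090, adjusted p = 0.00476). In SH-SY5Y cells it was 11.26 and 11.25 in control and 11.27 and 11.02 with TRPM7 shRNA, which overlapped. ELOVL6, which elongates palmitate, rose in SH-EP2 cells from 8.23 and 8.34 to 8.70 and 8.96, a log2 fold change of 0.55 (SE 0.11, adjusted p = 0.00764). In SH-SY5Y cells ELOVL6 gave 9.45 and 9.33 against 9.43 and 9.39. The FASN call was lost without SH-EP2 control replicate 1, where the log2 fold change was 0.34, or without TRPM7 shRNA replicate 1, and the ELOVL6 call without control replicate 1 or without TRPM7 shRNA replicate 2, where it was 0.42. A second ELOVL6 probe gave 0.38 in SH-EP2 cells (adjusted p = 0.315).

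ACACA, which makes malonyl-CoA, did not pass in either line. By its brightest probe the log2 fold changes were of similar size, 0.39 in SH-SY5Y (adjusted p = 0.104) and 0.40 in SH-EP2 cells (adjusted p = 0.073). Its signals were 8.65 and 8.41 in SH-SY5Y control cells and 8.98 and 8.86 with TRPM7 shRNA, and 8.88 and 9.08 against 9.34 and 9.43 in SH-EP2 cells. The difference of the effects was -0.011 for this probe, with a 95% interval from -0.36 to 0.33. A second ACACA probe of nearly the same brightness gave 0.38 in SH-SY5Y (adjusted p = 0.103) and 0.13 in SH-EP2 cells (adjusted p = 0.744). Its difference was 0.25, with a 95% interval from -0.078 to 0.59. SCD, which introduces a double bond into stearate and palmitate, lay between 11.57 and 11.85 on all 8 arrays, with log2 fold changes of 0.0031 and 0.044.

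Other gene groups moved between the same arrays. In SH-SY5Y cells 3 of the 12 noradrenergic markers fell and 0 rose, where 1.3% of all probes fell and 0.807% rose. Their summed linear signal, in which the brightest genes weigh most, was 38806 to 38825 in control and 27732 to 29074 with TRPM7 shRNA. Their median log2 signal in SH-SY5Y cells was 11.19 and 11.20 in control and 11.26 and 11.19 with TRPM7 shRNA. Of the 12 mesenchymal markers, 2 fell and 1 rose in these cells. In SH-EP2 cells 4 of the 12 mesenchymal markers fell and 1 rose, where 1.54% of all probes fell and 1.48% rose. Their sums were 61458 to 61741 in control and 55946 to 56304.5 with TRPM7 shRNA. Their median log2 signal in SH-EP2 cells moved the other way, from 11.60 and 11.63 to 11.70 and 11.76. Of the noradrenergic markers, 2 fell and 1 rose there. Of 10 proliferation genes, 2 fell in SH-SY5Y cells and 0 passed in SH-EP2 cells. In SH-EP2 cells 4 had an unadjusted p under 0.05, as did 12.6% of all probes. The sums there were 7343 to 7510.0 in control and 6770.1 to 6851 with TRPM7 shRNA. Their part in the changes of the lipid genes was not tested.

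The response to TRPM7 shRNA was then compared between the lines as a difference of the log2 fold changes (SH-SY5Y minus SH-EP2), with all 8 arrays. Of the 30 genes 2 passed, SQLE and FASN, where 1.4% of all probes passed (0.606% above 0 and 0.792% below), and 15 had an unadjusted p under 0.05, as did 10.3% of all probes. SQLE differed by 0.75 (SE 0.13, adjusted p = 0.00303), and by 0.65 to 0.85 with each array left out. The SQLE difference did not pass without the intensity trend (adjusted p = 0.406). A second SQLE probe differed by 0.61 (95% interval 0.14 to 1.07) and did not pass (adjusted p = 0.28). FASN differed by -0.57 (SE 0.13, adjusted p = 0.026), with an increase in SH-EP2 cells and a log2 fold change of -0.11 in SH-SY5Y cells that did not pass (adjusted p = 0.753). The FASN difference was -0.42 and did not pass with median scaling, and it did not pass with a replicate block, with the mean over the probes of each gene or without the intensity trend, where it stayed at -0.57. It did not pass without either SH-SY5Y control array, without SH-SY5Y TRPM7 shRNA replicate 2 (log2 difference -0.44), without SH-EP2 control replicate 1 or without either SH-EP2 TRPM7 shRNA array. For DHCR7 the difference was 0.44 (95% interval 0.029 to 0.85, adjusted p = 0.44), for ELOVL6 -0.53 (adjusted p = 0.145) and for MVD 0.86 (adjusted p = 0.224). For ABCA1 no SH-SY5Y level was measured. For DHCR7, ELOVL6 and ABCA1 a call in SH-EP2 cells alone does not show that the lines differed, and MVD passed in neither line.

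The control cells of the 2 lines were compared to ask how the lines differ in these genes before TRPM7 shRNA, and this comparison shares its control arrays with those above. Of the 30 genes 19 passed, 14 higher and 5 lower in SH-EP2 cells, where 26.2% of all probes passed (12.2% higher and 14% lower) and 57% of those detected on at least 2 of the 4 arrays. The arrays did not overlap for 25 genes, against 55.3% of all probes. The median log2 difference (SH-EP2 minus SH-SY5Y) was 0.44 over the 30 genes and -0.017 over all probes. By role it was 0.16 for sterol sensing, 0.52 for the mevalonate steps, 0.82 for the sterol steps, -1.29 for transport and 0.12 for fatty acid synthesis. The transport value is a fitted one, since STARD4 was not detected in SH-EP2 cells nor ABCA1 in SH-SY5Y cells.

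Most of the genes that were higher in SH-EP2 cells encode enzymes between acetyl-CoA and cholesterol. MVD had 7.51 and 7.55 in SH-EP2 control cells and 5.71 and 5.11 in SH-SY5Y control cells, a log2 difference of 2.12 (SE 0.21, adjusted p = 6.45e-08). HMGCS1 had 10.76 and 10.68 against 9.25 and 9.41, a log2 difference of 1.39 (SE 0.11, adjusted p = 2.63e-09). NSDHL, which removes a carbon from the sterol nucleus, had 10.26 and 10.18 against 8.70 and 8.86, a log2 difference of 1.44 (SE 0.10, adjusted p = 4.65e-10). All SH-EP2 control arrays lay above all SH-SY5Y control arrays for these enzymes. The differences were 1.15 for SQLE, 1.14 for DHCR7, 1.01 for SC5DL, 0.98 for LSS, 0.76 for IDI1, 0.67 for FDFT1, 0.63 for EBP and 0.52 for FDPS, with adjusted p-values of 0.00407 or less. The second FDFT1 probe gave 0.21 and did not pass (adjusted p = 0.139). The second probes of SQLE and DHCR7 gave 1.09 and 0.95 and passed (adjusted p = 1.07e-05 and 0.000284). INSIG1 was higher by 1.47 (SE 0.11, adjusted p = 2.13e-09), while SREBF1, SREBF2, SCAP and INSIG2 did not pass, with log2 differences from -0.13 to 0.30. ACACA and FASN were higher by 0.45 and 0.42 (adjusted p = 0.005 and 0.000984).

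The 5 genes that were lower in SH-EP2 cells came from 4 of the roles. ACAT2 had 7.31 and 7.73 in SH-EP2 control cells and 10.48 on both SH-SY5Y control arrays, a log2 difference of -2.96 (SE 0.12, adjusted p = 8.98e-14) and the largest in size among the 30 genes. TM7SF2 had 7.32 and 7.14 against 8.998 and 9.003, a log2 difference of -1.77 (SE 0.12, adjusted p = 1.99e-10). HSD17B7 had 9.20 and 9.05 against 10.34 and 10.14, and ELOVL6 had 8.23 and 8.34 against 9.45 and 9.33, log2 differences of -1.12 and -1.11 (adjusted p = 1.77e-08 and 1.25e-07). ABCG1 had a log2 difference of -1.34 (SE 0.33, adjusted p = 0.00381), and its 6 probes disagreed in direction. A dimmer ABCG1 probe also passed as lower (adjusted p = 4.76e-05). No SH-EP2 control array detected that probe, so that only a bound of at least 3.21-fold lower holds. The ABCG1 probes with differences above 0 did not pass and were detected on at most 1 array of either control group.

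Some calls of the line comparison rested on a single array. Without SH-EP2 control replicate 1 the calls of FDPS (log2 difference 0.40) and ABCG1 (-0.92) were lost, without SH-EP2 control replicate 2 those of ACACA and FASN (0.30), without SH-SY5Y control replicate 1 that of FDPS and without SH-SY5Y control replicate 2 that of ACACA (0.33). With the mean over all probes of a gene the calls of LSS (log2 difference 0.19), ABCG1 (-0.61) and ACACA (0.40) were lost, where the other 2 LSS probes were detected on 0 and 2 of the 8 arrays. The size of the ABCG1 difference also moved with the background correction, from -1.34 to -0.25 without one.

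**Figure D4:**
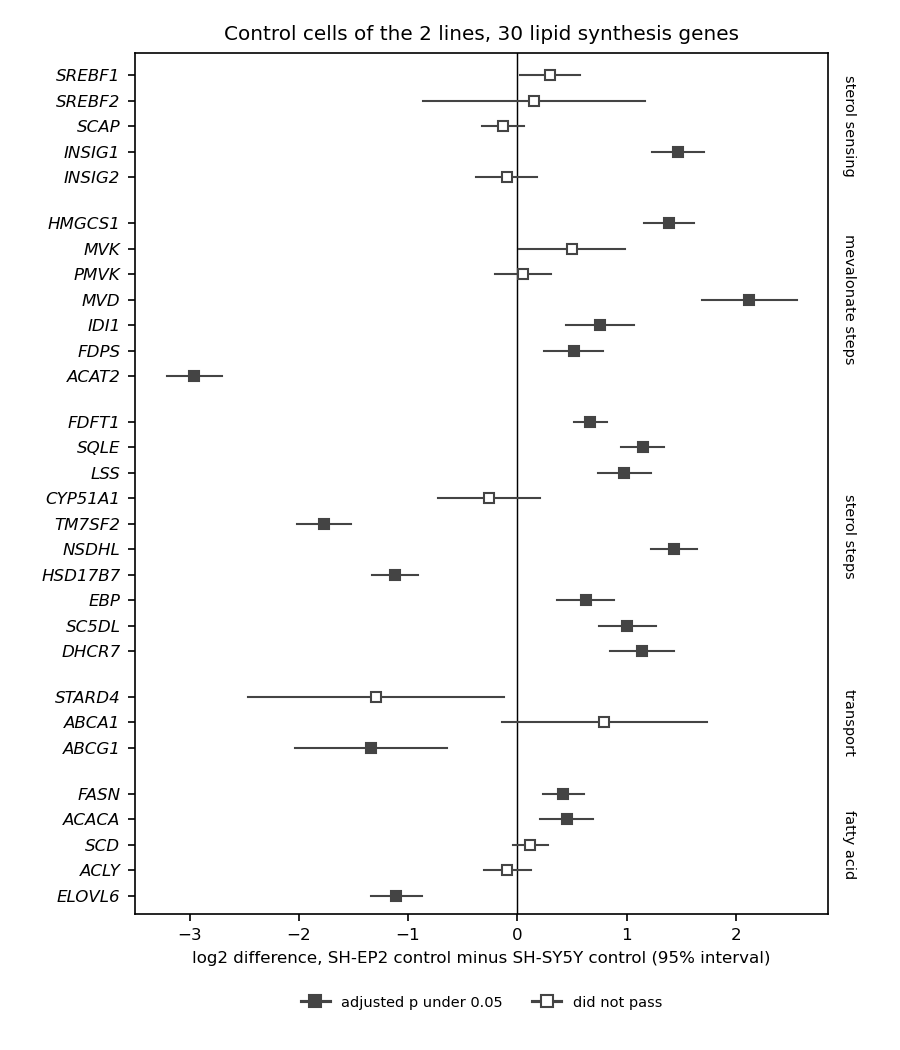
Log2 difference of each of the 30 genes between control cells of the lines, SH-EP2 minus SH-SY5Y, with its 95% interval. Filled squares passed an adjusted p of 0.05, 14 to the right of 0 and 5 to the left, and the widest differences are MVD at 2.12 and ACAT2 at -2.96.

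A further 67 genes of sterol and fatty acid metabolism were measured, and 63 were detected on at least 1 array. They were listed by role, with earlier results of these data known. In SH-SY5Y cells 3 of the 67 fell and 0 rose with TRPM7 shRNA (4.48%), and in SH-EP2 cells also 3 fell and 0 rose (4.48%). These shares stand against 2.11% and 3.02% of all probes, and against 4.73% and 7.08% of those detected on at least 2 of the 4 arrays.

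In SH-SY5Y cells ACSL4, which activates polyunsaturated fatty acids, fell by 0.68 on the log2 scale (adjusted p = 0.00737), and NPC2, which carries cholesterol out of lysosomes, fell by 0.34 (adjusted p = 0.0258). In SH-EP2 cells VLDLR, a lipoprotein receptor, fell from 6.63 and 6.51 to 4.59 and 3.71, a log2 fold change of -2.42 (SE 0.34, adjusted p = 0.000224). SC4MOL (now MSMO1), which removes methyl groups from the sterol nucleus, fell there by 0.51 (adjusted p = 0.0222). VLDLR did not pass with the mean over its 2 probes. The SC4MOL and NPC2 calls were lost when any array of their line was left out (log2 fold changes from -0.60 to -0.42 and from -0.38 to -0.30), that of ACSL4 without control replicate 1 (-0.56) or TRPM7 shRNA replicate 1 of SH-SY5Y cells. The ACSL4 call was also lost with median scaling (-0.51), with the mean over its probes (-0.15) and without the intensity trend. Those of NPC2 and SC4MOL were lost with median scaling, and that of NPC2 with the mean over probes. Without the intensity trend the NPC2, SC4MOL and VLDLR calls were lost as well. The difference between the lines passed for none (0) of the 67 genes, where 1.4% of all probes passed. An unadjusted p under 0.05 was found for 12 of them, and for 10.3% of all probes. SC4MOL came nearest at 0.69 (adjusted p = 0.0502). Between control cells 43 of the 67 passed, 31 higher and 12 lower in SH-EP2 cells (64.2%), against 26.2% of all probes and 57% of detected probes.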

How the data were processed

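Total RNA of SH-SY5Y and SH-EP2 cells was measured on 8 arrays, grouped by line and shRNA as the sample titles give them. The authors extracted bead signal intensities and a detection p-value per probe in GenomeStudio (version 2011.1 per the submitters' processing notes) and deposited the intensities without normalization, on a linear scale. The deposited detection p-values were used to call a probe detected. The methods of the study name Robust-Multi-Array normalization. They give Multi Experiment Viewer as the source of fold differences and p-values, without naming the test. Here signals were RMA background corrected, quantile normalized over 8 arrays and taken to log2, and limma 3.58.1 in R 4.3.3 was fitted on 4 group means (eBayes with an intensity trend), two-sided, with Benjamini-Hochberg adjustment over 47322 probes and a threshold of 0.05. An undetected group gives a bound, against the lowest detected signal of each array. Of the probes, 44052 had a symbol in the file. The genes named are the 30 members, other pathway genes that passed without overlap between groups, markers and TRPM7. Some genes of the lists enter the counts and are not reported singly here. The members, lists and tests were chosen with earlier results of these data known. The fit was tested on simulated data, with changes larger than most of those called with TRPM7 shRNA here. That test covered neither smaller changes nor dim probes. Alternatives changed the background correction (neqc with offset 16, normexp with offset 50, none), the scaling, the filter, the variance trend, the probe summary, the arrays in the fit and a replicate block.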

Additional observations from a re-analysis of the deposited data

Results flagged for a closer look

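The effect of TRPM7 shRNA differed between the lines for SQLE and for FASN by the interaction term of the limma fit. The difference of the log2 fold changes (SH-SY5Y minus SH-EP2) was 0.746 for SQLE (adjusted p = 0.00303), with 0.17 in SH-SY5Y and -0.57 in SH-EP2 cells. For FASN it was -0.569 (adjusted p = 0.026), with -0.11 in SH-SY5Y and 0.46 in SH-EP2 cells, and the signals of its SH-SY5Y groups overlapped. A second SQLE probe gave a difference of 0.605 that did not pass (adjusted p = 0.28). Without the intensity trend neither gene passed.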

How the results depend on the processing

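No gene that passed changed direction under the alternatives run. Role medians near 0 changed sign. In SH-SY5Y cells that of the mevalonate steps was -0.031 without control replicate 1, that of fatty acid synthesis fell to -0.038 when control replicate 2 was left out and to -0.044 when TRPM7 shRNA replicate 1 was, and in the line comparison that of sterol sensing was -0.037 without SH-EP2 control replicate 1 and -0.16 without SH-SY5Y control replicate 1. Against 2 genes in SH-SY5Y cells, 4 passed with neqc and without background correction, and 5 with normexp at offset 50, with probes detected on at least 2 arrays and with a crossed replicate block, which was added after seeing the data. Calls over all probes rose as well, from 382 higher and 617 lower. They were 458 and 697 with neqc, 592 and 800 without background correction and 561 and 791 with normexp. With the detected probes they were 507 and 737, and with the crossed block 587 and 833. Against 9 in SH-EP2 cells, 5 passed with the mean over probes and 16 with the SH-EP2 arrays fitted alone. Calls over all probes moved in the same order, from 698 higher and 731 lower. With the SH-EP2 arrays alone they were 1243 and 1344. With the mean over probes, where fewer features were tested, they were 401 and 450. Against 2 for the difference between the lines, 4 passed without background correction and 1 with median scaling, the mean over probes or the replicate block. Calls over all probes went from 287 above 0 and 375 below to 609 and 639 without background correction. They were 309 and 182 with median scaling, 174 and 195 with the mean over probes and 228 and 272 with the block. Without the intensity trend in limma 0 passed in each of these 3 comparisons, with 2, 12 and 4 at an unadjusted p under 0.05, and 14 in the line comparison, where 19 passed. Over all probes 27, 46 and 14 then passed above 0 in the 3 comparisons, and 37, 54 and 9 below 0. In the line comparison 4626 passed above 0 and 5066 below. With each array left out, 2 to 4 genes passed in SH-SY5Y (4 without control replicate 1), 3 to 10 in SH-EP2 (3 without control replicate 1, 4 without either TRPM7 shRNA array and 6 without control replicate 2), 1 to 3 for the difference and 17 to 19 between the lines. The remaining array was assumed to vary like the others. In SH-EP2 cells fewer of all probes also passed when an array of that line was left out. The INSIG1, ACAT2 and DHCR7 calls in SH-EP2 cells were lost with median scaling and with the mean over probes. The ELOVL6 call there was also lost with the mean over probes. Same-numbered arrays did not deviate together (correlations of -0.0045 for SH-EP2 cells and -0.11 for SH-SY5Y cells over 14577 probes). These values cannot tell whether same-numbered samples were prepared together. The replicate block gave 2, 8, 1 and 17 genes in the comparisons as ordered here. Calls over all probes fell with the block as well, to 282 higher and 519 lower in SH-SY5Y cells and to 545 and 591 in SH-EP2 cells. In the line comparison they went from 5779 and 6621 to 4808 and 5515. The block lost DHCR7 in SH-EP2 cells, FASN for the difference (adjusted p = 0.0503) and ACACA and FASN between the lines. The causes were not tested. Signals near background limit SREBF2, STARD4, ABCA1 and ABCG1.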
